A study of Homo sapiens with 6 samples.

Results

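Acetylation of lysine 27 of histone H3 (H3K27ac), a mark of active promoters and enhancers, was mapped by chromatin immunoprecipitation and sequencing (ChIP-seq) in a cultured line of clear cell sarcoma (CCS), SU-CCS-1, whose genotype is EWSR1::ATF1 (EA1). The 3 H3K27ac replicates and the 3 input replicates were all of this line, with no treatment named in the labels, and input is chromatin that was not immunoprecipitated. The peaks described here lie deep inside long protein-coding genes. A peak was included when it lay more than 3 kb from every transcript start site of GENCODE version 44, when its midpoint fell in the body of a protein-coding gene of 200 kb or longer, and when that midpoint was in no annotated exon. Of the 30784 peaks in the list, 2729 met these conditions (8.86%, 95% Wilson interval 8.55 to 9.19). They are called long-gene peaks below. They made up 22.9% (22.1 to 23.6) of the 11928 distal peaks, which are all peaks beyond 3 kb of a start site. They also made up 42.5% (41.3 to 43.7) of the 6426 distal peaks in introns of protein-coding genes of any length. Long genes were 1502 of 20033 protein-coding genes (7.498%), a share that takes no account of their length. Per megabase of sequence in which such a peak could lie, density was 5.17 in long genes (4.97 to 5.36). It was higher in shorter genes, at 9.13 below 50 kb, 9.26 at 50 to 100 kb and 9.15 at 100 to 200 kb.

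The list is 1 merged set of intervals on hg38 with no read count, score or column per replicate. The list gives no depth per sample (the study's methods state only an approximate depth for its ChIP libraries), the replicate behind a peak cannot be known, and the spread between cultures cannot be given. No test across samples was possible, and all comparisons below are descriptions of this list. Their intervals cover counting only. As a check of the label, 14 of 18 listed genes of the melanocyte and neural crest lineage (77.8%, 54.8 to 91.0) had a peak within 3 kb of a start site, among them SOX10, PAX3, MITF and DCT, against 63.4% of all protein-coding genes. KIT, TFAP2B, TRPM1 and TYR had none. The interval takes in the 63.4%, so this check cannot set the lineage apart. Other lists of genes had shares of 72.7% (Schwann and glial), 68.2% (skeletal muscle) and 100% (chromatin regulators).

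Enhancers often lie in introns, and long introns give room for many of them. In an active enhancer the nucleosomes beside the factor-bound site carry H3K27ac, and the bound site itself can sit in a dip of the signal between acetylated stretches. EA1 joins part of EWSR1 to the part of ATF1 that holds its DNA-binding domain. ATF1 belongs to the CREB family, whose members bind the palindrome TGACGTCA and respond to cyclic AMP (cAMP). Position inside a gene does not show which gene an enhancer controls, and a host gene is named here only as the place where a peak lies.

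Long-gene peaks held 30 copies of TGACGTCA, in 30 peaks of 29 genes, and the stretches of 50 to 1000 bases between neighbouring long-gene peaks held 7 more, in 7 genes. A few are printed because the motif results below rest on them. Each is a 100-base stretch of hg38, 5′ to 3′ on the plus strand, with TGACGTCA in capitals. The 3 sites below lay within 100 bases of the midpoint of their peak, in a subunit of the kainate glutamate receptor (GRIK4), a protein kinase C isoform (PRKCE) and a zinc-finger homeobox factor (ZFHX3).
GRIK4, chr11:120832797-120832896: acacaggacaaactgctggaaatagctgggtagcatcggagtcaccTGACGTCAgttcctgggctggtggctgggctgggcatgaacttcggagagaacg
PRKCE, chr2:46179225-46179324: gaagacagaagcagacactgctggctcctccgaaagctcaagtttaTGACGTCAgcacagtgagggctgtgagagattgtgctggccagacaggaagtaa
ZFHX3, chr16:73053807-73053906: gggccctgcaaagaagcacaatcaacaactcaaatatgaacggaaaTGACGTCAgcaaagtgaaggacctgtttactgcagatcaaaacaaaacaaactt

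The next 4 sites lay inside peaks of genes for phosphodiesterases, the enzymes that degrade cyclic nucleotides, and were chosen for that after the host genes were seen.
PDE4D, chr5:59127681-59127780: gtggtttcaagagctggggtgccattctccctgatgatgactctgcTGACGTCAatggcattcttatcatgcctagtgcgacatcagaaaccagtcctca
PDE3A, chr12:20527537-20527636: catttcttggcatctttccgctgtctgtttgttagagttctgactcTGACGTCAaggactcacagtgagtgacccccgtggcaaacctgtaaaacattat
PDE7B, chr6:135902225-135902324: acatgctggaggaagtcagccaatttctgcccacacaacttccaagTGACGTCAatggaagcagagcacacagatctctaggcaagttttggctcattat
PDE1C, chr7:32255117-32255216: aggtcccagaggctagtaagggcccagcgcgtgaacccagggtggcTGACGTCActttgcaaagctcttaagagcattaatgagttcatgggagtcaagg

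The 3 sites that follow lay not in a peak but in a gap between neighbouring peaks of a phosphodiesterase gene. The gap measured 760 bases in PDE10A, 330 bases in PDE3A and 680 bases in PDE4B.
PDE10A, chr6:165961488-165961587: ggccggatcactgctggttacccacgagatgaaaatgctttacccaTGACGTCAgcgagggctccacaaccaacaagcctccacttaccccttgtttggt
PDE3A, chr12:20588114-20588213: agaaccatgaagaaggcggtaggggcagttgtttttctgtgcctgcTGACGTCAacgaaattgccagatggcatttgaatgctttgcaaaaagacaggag
PDE4B, chr1:66271397-66271496: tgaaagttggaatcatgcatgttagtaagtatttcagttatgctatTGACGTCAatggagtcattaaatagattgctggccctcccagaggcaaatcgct

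A last pair lay in peaks of long genes that were dense in peaks. HDAC4 encodes a histone deacetylase and ZMIZ1 a transcriptional co-regulator.
HDAC4, chr2:239244061-239244160: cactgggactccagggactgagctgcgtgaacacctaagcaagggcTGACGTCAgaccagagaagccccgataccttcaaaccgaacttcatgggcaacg
ZMIZ1, chr10:79080617-79080716: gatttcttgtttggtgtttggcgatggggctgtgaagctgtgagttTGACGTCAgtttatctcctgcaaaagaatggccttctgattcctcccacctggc

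At least 1 long-gene peak lay in 684 of the 1502 long genes, or 45.5% (43.0 to 48.1), and 818 long genes held none. The 684 genes included 20 readthrough genes, which are annotated fusions of neighbouring genes. With each peak assigned to 1 gene there were 672 hosts. Of these, 212 held a single peak, 269 held 2 to 4, 134 held 5 to 9, and 57 held 10 or more. The median was 2 peaks per host. Peaks were unevenly shared: the 57 hosts with 10 or more held 918 peaks (33.6%), the 10 leading hosts held 295 (10.8%, 9.70 to 12.03), and 114 hosts (17.0%) together held 50% of the total.

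DIP2C, a member of the disco-interacting protein family (chr10:274201-689668, minus strand), held the most peaks, 38. Of these, 29 lay in its first intron. HDAC4 followed with 37 peaks that began 5.66 kb from its outermost start and reached 304.1 kb into the gene. MAD1L1, whose product acts in the spindle assembly checkpoint, held 34. PDE4D, a cAMP-specific phosphodiesterase, held 33, none of them closer than 237.1 kb to its outermost start. PDE4D is several times longer than the other three, and its density was lower. Per megabase (Mb) of sequence in which such a peak could lie, HDAC4 had 151.4 peaks (95% Poisson interval 106.6 to 208.6), DIP2C 109.4 (77.4 to 150.2), MAD1L1 107.0 (74.1 to 149.6) and PDE4D 23.5 (16.2 to 33.0), against 5.17 (4.97 to 5.36) over all long genes.

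The other leading hosts came from many pathways. TMTC2, an O-mannosyltransferase of the endoplasmic reticulum, held 27 peaks, and MTHFD1L, a mitochondrial enzyme of folate metabolism, held 26. The homeodomain factor CUX1 and the desmosome-associated protein KAZN each held 25, and the G protein-coupled receptor kinase GRK5 and the neuron navigator NAV2 each held 22. FARP1, a gene of the FERM domain family, held 20. GALNT2, which starts mucin-type O-glycosylation, held 19, and all 19 lay in its first intron. Very long genes of the nervous system also appeared: CSMD1 held 28 peaks and the postsynaptic scaffold gene DLGAP2 held 18. OCA2, a melanosomal transporter needed for pigmentation, held 18 peaks spread from 11.6 to 335.2 kb from its start. Per 100 kb of gene length, with at least 5 peaks required, the order was MTHFD1L (11.01), HDAC4 (10.5), DIP2C (9.15), GRK5 (8.72), GALNT2 (8.48), MAD1L1 (8.14), ZMIZ1 (7.27), FARP1 (6.40), DIP2B (6.16) and TANC1 (6.06). The Poisson intervals of their densities per Mb overlapped between neighbours in this order.

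**Figure D1:**
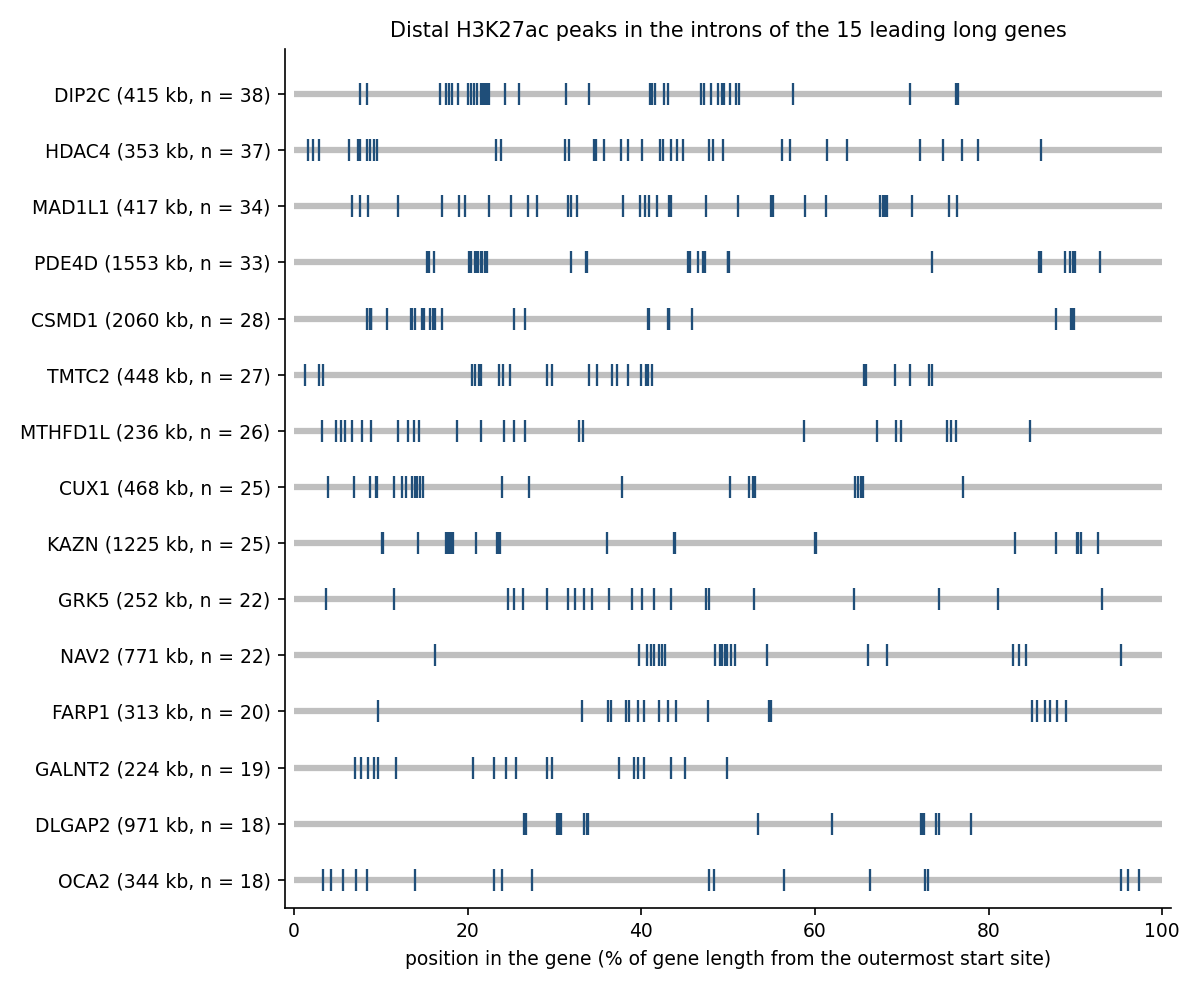
Position of each long-gene peak (blue tick, peak midpoint) in the 15 long genes with the most peaks, on an axis that runs from the outermost start site (0) to the end of the gene (100% of its length). Labels give gene length and the number of peaks (n); all 19 peaks of GALNT2 lie in the first part of the gene, whereas those of OCA2 reach from near its start to near its end.

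The longest genes of the annotation held few peaks. RBFOX1, a splicing factor gene of 2474 kb, held 5, all between 60 and 80% of its length, 1596 to 1769 kb from its outermost start. CNTNAP2, a neuronal adhesion gene of 2305 kb, held 10, and MACROD2 held 5, all in the last 20% of its length. DMD, LRP1B and CTNNA3 held 1 each. PTPRD (2299 kb), DLG2 (2173 kb) and EYS (1987 kb) held none, nor did NRXN3, DAB1, GPC5, DPP10, NAALADL2 and IL1RAPL1. Among the 10 longest genes CSMD1, with 28, thus stood apart. For PTPRD, a count of 0 is compatible with up to 1.68 peaks per Mb by the Poisson interval.

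Density was lower in the longer genes. In protein-coding genes shorter than 50 kb there were 9.13 distal intronic peaks per Mb (8.48 to 9.82). Genes of 100 to 200 kb had 9.15 (8.74 to 9.58), genes of 200 to 300 kb 7.13 (6.67 to 7.62), genes of 500 to 1000 kb 3.57 (3.27 to 3.88), and genes above 1000 kb 2.23 (1.94 to 2.56). The share of genes with such a peak went the other way, from 3.56% below 50 kb to 39.2% at 200 to 300 kb and 52.0% at 500 to 1000 kb, since a longer gene offers more sequence. It was 49.3% (38.0 to 60.7) above 1000 kb. Just above the 200 kb limit, the hosts RFTN1 (200.5 kb), ANKRD6 (200.7 kb) and LIPA (201.0 kb) held 1, 5 and 2 peaks. Just below it, LRCH1 (199.9 kb) and ERBIN (199.4 kb) held 1 and 6 such peaks. Genes of 180 to 200 kb had a peak in 42.2% of cases (36.0 to 48.6) and genes of 200 to 220 kb in 37.5% (31.0 to 44.5), with densities of 10.05 and 7.82 per Mb.

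**Figure D2:**
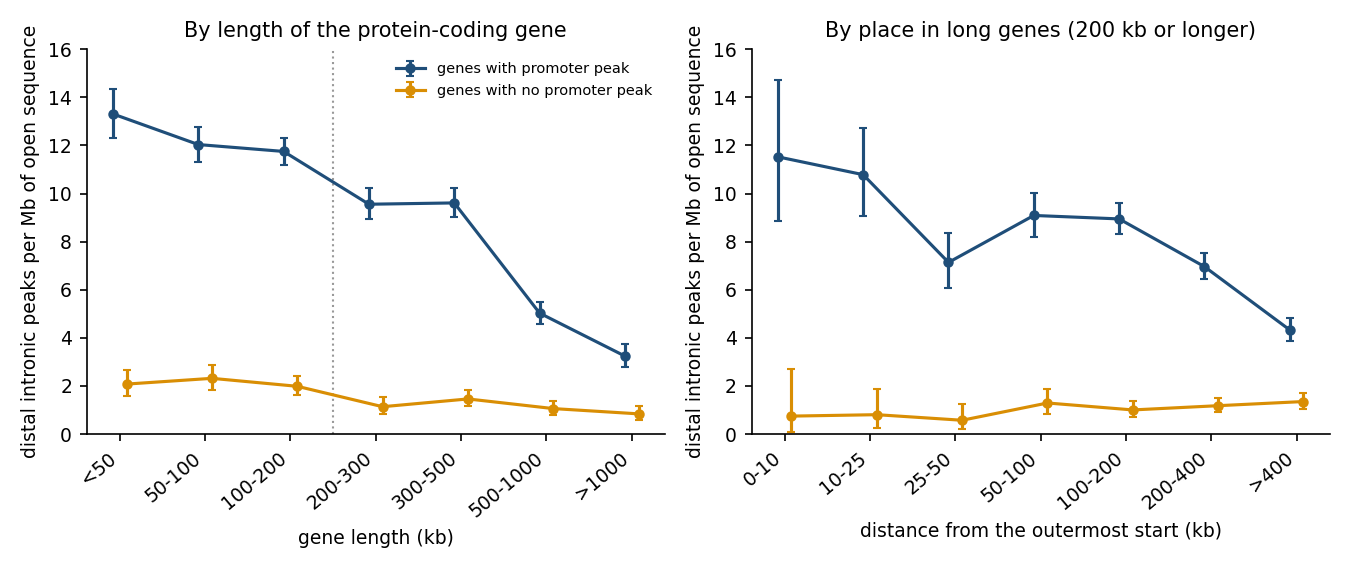
Distal intronic peaks per Mb of sequence open to them, by gene length (left, the dotted line marks 200 kb) and, in long genes, by distance from the outermost start site (right). Blue points are genes with a promoter peak, orange points are genes without, and bars are 95% Poisson intervals; in genes with a promoter peak the density falls from 13.3 per Mb below 50 kb of length to 3.24 above 1000 kb.

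Hosts usually had an acetylated promoter. A promoter peak is here a peak within 3 kb of any annotated start site of the gene, including start sites inside its body. One was present at 582 of 684 hosts (85.1%, 82.2 to 87.6) and at 446 of 818 long genes without a long-gene peak (54.5%, 51.1 to 57.9). Over all long genes the share was 68.4%. Read the other way, a long-gene peak was found in 56.6% (53.6 to 59.6) of the 1028 long genes with a promoter peak and in 21.5% (18.1 to 25.4) of the 474 without. Density was 7.34 per Mb (7.05 to 7.63) in the first set and 1.15 per Mb (1.0 to 1.31) in the second, and the same order held in every length class from below 50 kb to above 1000 kb.

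The larger the summed width of promoter peaks, the higher the density of long-gene peaks. The sum takes in peaks at start sites inside the gene. It can thus grow with the number of start sites and with acetylation of the gene body, and is not the width of 1 promoter. The 1028 long genes were divided into 4 equal groups by the summed width of their promoter peaks. In the group with the narrowest, 400 to 1150 bases, there were 2.501 long-gene peaks per Mb (2.202 to 2.83). The next groups had 4.07 (3.65 to 4.54) and 6.90 (6.33 to 7.503), and the group with 3000 bases or more had 17.2 (16.3 to 18.1). The share of genes with at least 1 long-gene peak went from 38.9% to 47.5%, 59.5% and 80.5%. In HDAC4 the promoter peaks summed to 40.3 kb and the gene held 37 long-gene peaks, and in MAD1L1 they summed to 35.1 kb beside 34 long-gene peaks. Both measures come from the same merged list and rest on the same reads.

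**Figure D3:**
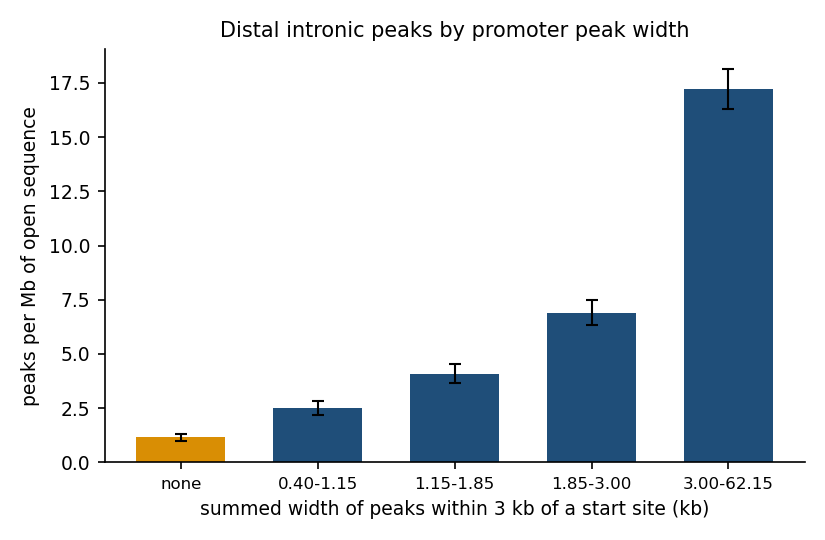
Long-gene peaks per Mb of open sequence (bar height, with 95% Poisson intervals) in the 474 long genes without a promoter peak (orange) and in 4 groups of 257 long genes ordered by the summed width of their promoter peaks in kb (blue). Density goes from 1.15 per Mb without a promoter peak to 17.2 per Mb in the group with the largest sum. Peaks at start sites inside the gene count toward the sum.

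A smaller set of 213 long-gene peaks lay in 102 genes with no promoter peak. CNTNAP2 held 10 of them, PTPRN2 8, the ubiquitin ligase gene HECW1 7, the calcium release channel gene RYR3 7, and ADAMTS2, a procollagen-processing protease, 6. The nearest promoter peak of any gene was a median 259.7 kb away (quartiles 140.4 and 477.5), against 44.5 kb (14.3 and 102.7) for long-gene peaks in hosts with a promoter peak. In genes without a promoter peak the density was higher toward the end of the gene, with 0.736 per Mb (0.485 to 1.07) in the first 20% of gene length and 1.67 (1.28 to 2.13) between 60 and 80%. No such trend was seen over all long genes, where 5 equal parts of the gene held 561, 564, 512, 594 and 498 peaks, or 4.69 to 5.53 per Mb.

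Most long-gene peaks lay far into their gene, as did most of the open sequence. The median distance from the outermost start was 172.6 kb (quartiles 84.8 and 303.0), the median position was 48.8% of gene length, and 1937 peaks (71.0%) lay beyond 100 kb. Of the 528.2 Mb of open sequence, 125.6 Mb lay at 100 to 200 kb, 146.7 Mb at 200 to 400 kb and 132.2 Mb further in. The share of peaks beyond 100 kb was thus not above the share of sequence there. The first 50 kb of the genes were nevertheless richer. They held 372 peaks (13.6%) in 11.3% of the open sequence, which gave 6.25 peaks per Mb against 5.03 further in, a ratio of 1.24 (1.11 to 1.39). By distance, density was 8.02 per Mb within 10 kb, 5.00 at 25 to 50 kb, 6.55 at 50 to 100 kb and 3.15 beyond 400 kb. The low value at 25 to 50 kb was also present in genes with a promoter peak, at 7.14 (6.05 to 8.36) against 9.09 (8.21 to 10.03) at 50 to 100 kb. Only genes longer than 400 kb enter the last class, and in genes of 200 to 500 kb with a promoter peak the density beyond 400 kb was 5.81 (3.72 to 8.64). In genes of 500 kb or longer the ratio was 0.857 (0.595 to 1.20).

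The first intron held more than its share. Of 2402 long-gene peaks that fell in an intron of the canonical transcript of their host, 671 (27.9%, 26.2 to 29.8) were in the first intron. That intron made up 20.8% of the open intron sequence of all long genes and 21.8% of that of hosts. The second intron held 15.8% of the peaks in 15.9% of the sequence and the third 12.3% in 11.6%. The longest intron, whichever it was, held 39.8% in 38.3%. In long genes with a promoter peak the first intron held 29.1% of the peaks (27.3 to 31.1) in 20.8% of the sequence. Where there was no promoter peak it held 29 of 199 (14.6%, 10.3 to 20.1) in 20.9%.

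Distance from the outermost start overstates isolation, because long genes carry internal start sites. The nearest annotated start site of any kind was a median 17.2 kb away (quartiles 8.42 and 37.3), against 8.53 kb for the 3697 distal intronic peaks of shorter genes. It belonged to the long host itself for 1572 peaks (57.6%), to a noncoding gene for 1088 (39.9%) and to another protein-coding gene for 69 (2.53%). No start site lay within 50 kb of 15.5% of long-gene peaks (14.2 to 16.9), compared with 1.05% (0.773 to 1.44) in shorter genes. Among long-gene peaks 82 were more than 100 kb from any. The contrast with shorter genes follows in part from the length rule. A peak in a gene below 50 kb, as 733 of the 3697 were, is always within 50 kb of that gene's start. At the other limit of the rule, 155 long-gene peaks had a start site at 3 to 4 kb (median width 780 bases) and 178 peaks of long genes missed inclusion with one at 2 to 3 kb (840 bases).

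Width did not set long-gene peaks apart. Their median was 760 bases (quartiles 530 and 1350), that of distal intronic peaks in shorter genes 760 bases (520 and 1340) and that of promoter peaks 1270 bases (740 and 1940). No peak in the list, distal or promoter, was narrower than 400 bases, so all sets share this floor near their lower end. Only 5.42% of long-gene peaks were wider than 3 kb. The widest, 16.9 kb, lay in the third intron of the scaffold gene TANC1 (chr2:159083801-159100670). MAD1L1 held the next, 14.4 kb, followed by KALRN (11.1 kb), the microtubule-associated protein gene MAP7 (10.9 kb) and MAD1L1 again (9.33 kb).

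Long-gene peaks came in runs. Another long-gene peak of the same gene lay within 5 kb of 60.02% (58.2 to 61.8) and within 25 kb of 74.8% (73.1 to 76.3). At the distance the study used to join enhancers, which lies between these, the number was 1848 (67.7%, 65.9 to 69.4). Joined at that distance the peaks formed 1468 runs, of which 80 in 65 hosts had 5 peaks or more. The median gap between neighbours in a gene was 4.79 kb, and 36.2% of gaps were 1 kb or shorter. The largest runs had 16 peaks each. One spanned 66.2 kb in HDAC4 (chr2:239225391-239291570), 110.3 to 174.8 kb from the outermost start. GRK5 held a run over 71.8 kb, MTHFD1L over 56.9 kb and DIP2C over 38.8 kb. ZMIZ1 had a run of 14 over 83.2 kb. Joining all peaks at the same distance placed 28.6% of long-gene peaks in a region that also held a promoter peak, and 26.7% stood alone.

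The genes of cAMP signalling were of interest because ATF1 is a cAMP-responsive factor. EA1 itself, as the study states, lacks the cAMP response element of ATF1. The study cites the hypothesis that the fusion acts on ATF1 target genes without need of cAMP. Long-gene peaks lay in 12 of the 17 long genes of a list of this pathway, with 94 peaks in all, a median of 3 per gene and 13.5 per Mb (10.9 to 16.6). Over all long genes 45.5% held a peak, with a median of 0 and 5.17 per Mb. Without PDE4D the list held 61. Phosphodiesterases accounted for 87 of the 94: PDE4D held 33, PDE10A 18, PDE4B 13, PDE3A 5, PDE7B 5, PDE8B 4, and PDE11A, PDE1A and PDE1C 3 each. The anchoring proteins AKAP6 and AKAP13, which hold protein kinase A in place, held 3 and 2, and the adenylate cyclase ADCY2 held 2. ADCY8, CREB5, RAPGEF2, RAPGEF4 and RAPGEF5 held none, and of these only RAPGEF2 had a promoter peak.

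Peaks of the phosphodiesterase genes were grouped at particular places. In PDE4B (chr1:65792514-66374579, plus strand) all 13 lay in the last 20% of its length. A run of 12 covered 39.7 kb (chr1:66261861-66301600), 469.6 to 508.7 kb from the outermost start but 4.21 to 35.5 kb from internal start sites of PDE4B. PDE4D had 10 peaks in 35.1 kb (chr5:60175631-60210730), 312.8 to 345.4 kb from its outermost start, and 7 in the last 20% of its length. The largest run of PDE10A had 6 peaks, and 9 of its 18 peaks were in the first 20% of its length.

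**Figure D4:**
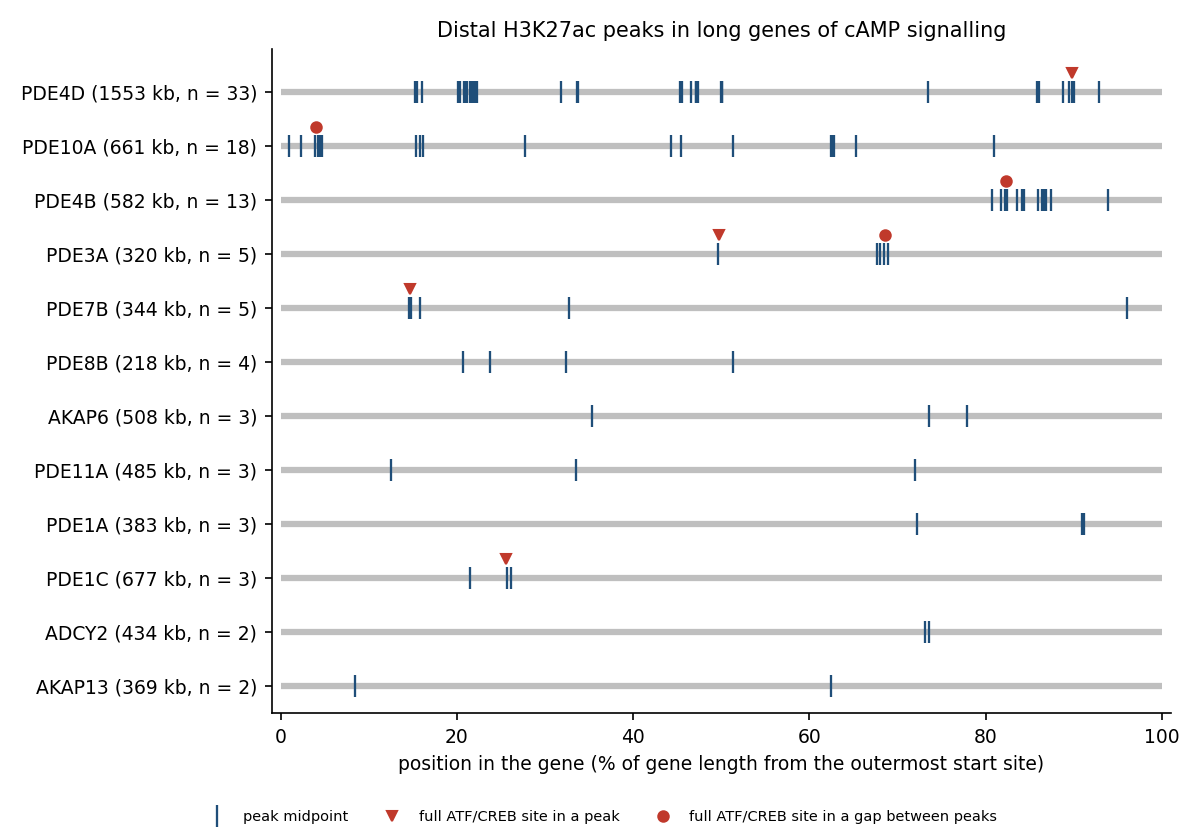
Position of long-gene peaks (blue ticks, peak midpoints) in the 12 long genes of the cAMP list that held any, from the outermost start site (0) to the end of the gene (100% of its length). Red triangles mark the full ATF/CREB palindrome inside a peak and red circles the same palindrome in a gap of 50 to 1000 bases between peaks. At least 1 is carried by 6 of the 12 genes, against 35 of 672 hosts over all long genes. The 13 peaks of PDE4B all lie past 80% of its length.

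Genes of the melanocyte lineage were few among long genes. The pigment gene programme is a feature of CCS, and MITF is the central melanocyte transcription factor, which has several alternative promoters. Of 5 long genes of this list, 4 held a total of 37 peaks, with a median of 6 and 14.7 per Mb (10.3 to 20.2). OCA2 held 18 and MITF 10, while BNC2, a zinc-finger gene tied to skin pigmentation, held 6. SOX6 held 3, and SOX5 held none although it had a promoter peak. In MITF (chr3:69739456-69968336, plus strand) 8 of the 10 lay in the last 20% of its length, and all 10 lay 3.22 to 26.4 kb from a start site of MITF itself. The widest of them measured 5580 bases (chr3:69925151-69930730), in the second intron of the canonical transcript.

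Schwann and glial genes, the other neural crest branch listed, were sparse. Only 2 of 13 long genes held a peak, ERBB4 with 3 and SORCS1 with 2, for 0.563 per Mb (0.183 to 1.31), although 10 of the 13 had a promoter peak. NRG1, ANK3, CADM1 and SOX5 held none.

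Chromatin regulators had the highest density of the 11 lists described here. Their 20 long genes held 118 peaks, a median of 1.5 per gene and 19.4 per Mb (16.03 to 23.2). The 11 genes with a peak made up 55.0% (34.2 to 74.2), near the 45.5% of all long genes, so the difference was in density. In this list every one of the 20 had a promoter peak. HDAC4 led with 37, and the others held 81 together. ARID1B, a subunit of the SWI/SNF remodelling complex, held 16, the acetyltransferase gene KAT6B held 12, JARID2 of the polycomb machinery held 11, the Notch coactivator MAML3 9 and the methyltransferase gene EHMT1 8. HDAC9, KMT2C, SMARCA2 and TBL1XR1 were among those that held none.

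Transcription factor and kinase lists stood closer to all long genes. Transcription factor genes had 6.27 per Mb (5.23 to 7.45) in 26 of 51, led by CUX1. Protein kinases had 5.73 per Mb (4.56 to 7.11) in 21 of 36, among them the SRC-family kinase FYN with 10, MAST4 with 9 and the insulin-like growth factor receptor IGF1R with 7.

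The lists built from neuronal and structural genes lay below all long genes in density, though not all of them in the share of genes with a peak, which was 45.5% over all long genes. Adhesion and axon guidance genes had 1.76 per Mb (1.41 to 2.17), with peaks in 22 of 61 genes (36.1%), led by the receptor phosphatase PTPRM with 11. Channel and transmitter receptor genes had 2.45 (1.84 to 3.19) in 19 of 46 (41.3%), and extracellular matrix genes 2.05 (1.34 to 3.01) in 10 of 29 (34.5%). Skeletal muscle genes had 3.39 (2.29 to 4.85) in 11 of 17 (64.7%), with UTRN at 8 and DMD at 1. Genes at common fragile sites, a list of very long genes, had 3.44 (2.85 to 4.10) in 17 of 27 (63.0%), and of their 122 peaks PDE4D held 33 and CSMD1 28. These lists also differed in how many of their long genes had a promoter peak, 45.9% for adhesion, 37.0% for channels and 34.5% for matrix genes against 68.4% of all long genes. Some genes stood in several lists.

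**Figure D5:**
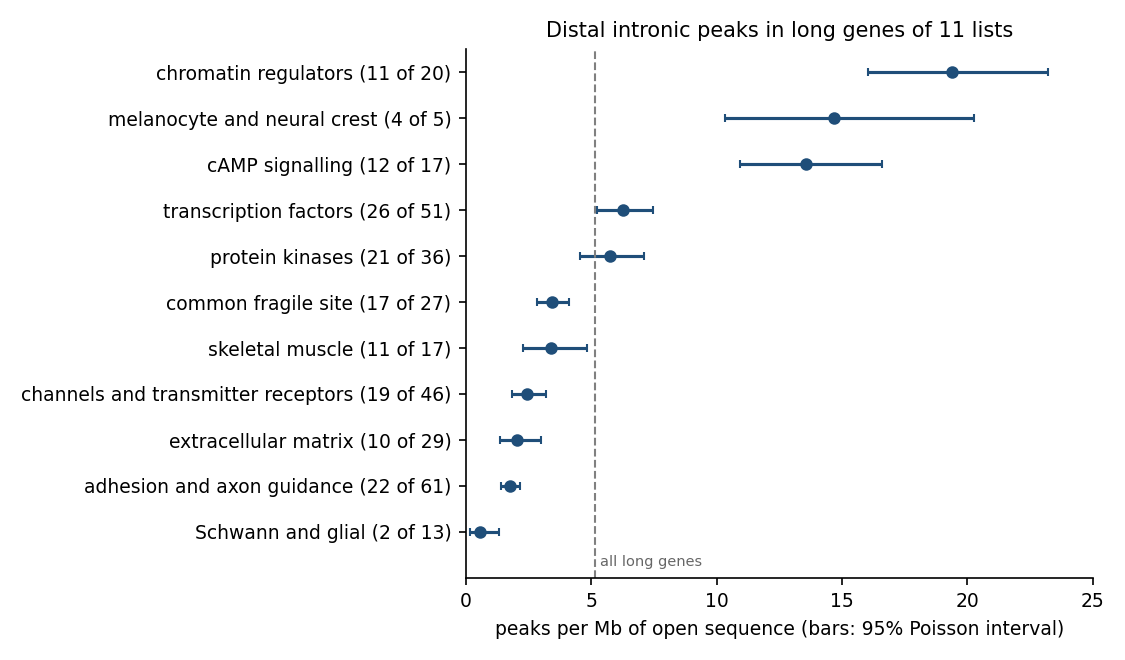
Long-gene peaks per Mb of open sequence in the long genes of 11 lists (points, with 95% Poisson intervals); labels give the long genes with a peak of all long genes in the list, and the dashed line is the value over all long genes, 5.17 per Mb. Chromatin regulators (19.4), melanocyte and neural crest genes (14.7) and cAMP signalling genes (13.5) lie to the right of the line, and Schwann and glial genes (0.563) lie furthest to the left.

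The sequence of long-gene peaks was richer in G and C than the introns around them. Median GC content was 46% (quartiles 42.0 and 50.5), against 38.7% in 300-base tiles of open intron outside peaks, 48.8% in distal intronic peaks of shorter genes and 58.2% in promoter peaks. Motif counts were read with this difference in mind, since GC content alone moves them. Motifs were searched on both strands: TGACGTCA; TGANNTCA, which includes TGACGTCA; the AP1 site TGAGTCA; the E-box CACGTG; and TCACGTGA, an extended E-box of the kind MITF binds, which includes CACGTG.

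TGACGTCA occurred 9.55 times per Mb (6.44 to 13.6) in long-gene peaks, 2.89 (2.74 to 3.04) in the open introns outside peaks, 8.21 (5.72 to 11.4) in distal intronic peaks of shorter genes and 23.8 (22.1 to 25.7) in promoter peaks. Even so it was rare. In the central 300 bases it was found in 5 of 2729 long-gene peaks (0.183%, 0.0783 to 0.428), against 0.0837% of intron tiles. The looser TGANNTCA was in 18.4% of the central windows and 15.5% of tiles, TGAGTCA in 5.35% and 4.52%, CACGTG in 4.10% and 2.499%, and TCACGTGA in 0.403% and 0.144%. Among windows of 40 to 50% GC the shares were 20.2% (18.0 to 22.5) and 17.9% for TGANNTCA, 5.62% (4.46 to 7.05) and 5.35% for TGAGTCA, and 3.75% (2.82 to 4.96) and 3.36% for CACGTG. The rare motifs had wide intervals there, with 0.489% (0.224 to 1.06) and 0.191% for TCACGTGA and 0.163% (0.0447 to 0.592) and 0.109% for TGACGTCA. At 50 to 60% GC the shares were 24.4% (21.4 to 27.6) and 20.9% for TGANNTCA, 5.12% (3.74 to 6.98) and 4.80% for TGAGTCA, and 5.40% (3.98 to 7.30) and 5.20% for CACGTG. In the same class they were 0.693% (0.296 to 1.61) and 0.253% for TCACGTGA and 0.416% (0.141 to 1.21) and 0.149% for TGACGTCA. TGAGTCA and CACGTG in peaks thus had the intron value inside their interval in both classes. TGANNTCA and TCACGTGA lay above it in both, though TCACGTGA was found in only 6 and 5 windows. TGACGTCA, found in 2 and 3 windows, could not be placed at this number of sites. Below 40% GC the order for TGANNTCA was the other way, at 12.4% (9.83 to 15.4) and 13.2%. At 60% GC or more it was also the other way, at 4.90% (2.82 to 8.36) and 6.42%. The intron value was inside the interval in each of these classes. TCACGTGA was in 0 of 534 central windows below 40% and 0 of 245 at 60% or more. Central windows of distal intronic peaks in shorter genes held TGANNTCA in 19.7%, TGAGTCA in 5.25% and CACGTG in 4.06%. For TCACGTGA the share there was 0.243% (0.128 to 0.462). In whole peaks TCACGTGA occurred 8.45 times per Mb there and 8.59 times in long-gene peaks. These motif values were thus not particular to long-gene peaks.

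The short gaps between neighbouring peaks held TGANNTCA and TGAGTCA more often per Mb than the peaks. For TGACGTCA and CACGTG the value was also higher in the gaps, but the intervals overlapped those of the peaks. There were 738 gaps of 50 to 1000 bases, and TGACGTCA stood in them 22.2 times per Mb (8.93 to 45.8, from 7 sites), and TGAGTCA 282.4 times (226.8 to 347.6), against 198.6 (183.3 to 214.8) inside the peaks. TGANNTCA occurred 761.7 times per Mb (668.3 to 864.4) in the gaps and 631.1 (603.7 to 659.5) in the peaks. CACGTG occurred 174.5 times (131.5 to 227.2) in the gaps and 152.8 (139.4 to 167.1) in the peaks, whereas TCACGTGA, with 2 copies in the gaps, was not higher there (6.35 against 8.59). Median GC content of the gaps was 40.4%, below that of the peaks. The gap sites printed above from PDE10A, PDE3A and PDE4B are 3 of these 7, and the others lay in EXOC2, JARID2, MAST4 and RCAN2.

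Hosts of the cAMP list held 4 of the 30 TGACGTCA copies in peaks, 32.4 per Mb of peak (8.83 to 83.0) against 9.55 in all long-gene peaks. With the gaps, 6 of the 12 hosts of the list carried a copy, against 35 of 672 hosts over all long genes. Hosts of the list held more peaks per gene, 94 peaks in 12 hosts against 2729 in 672. More sequence was therefore searched in each of them. All 6 were phosphodiesterase genes: PDE4D, PDE3A, PDE7B, PDE1C, PDE10A and PDE4B. This grouping was noticed after the host genes were seen, and its interval reaches down to the value of all long-gene peaks. In the melanocyte and neural crest list, which has less peak sequence, no copy was found in any peak or gap. The PDE3A site at chr12:20588160-20588167 and the PDE4B site at chr1:66271443-66271450 both lay in gaps within a cluster of peaks.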

How the data were processed

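The study performed H3K27ac ChIP-seq on SU-CCS-1 cells with 3 ChIP and 3 input replicates. The deposited file, made by the authors, holds peak starts and ends in bases, with no count, ratio or score. Per the submitters' processing notes and the study's methods, reads were aligned to hg38 with BWA-MEM 0.7.10-r789, duplicates were removed with samtools, broad peaks were called with MACS2 2.2.6 against input, and peaks in denylisted regions of the ENCODE project were dropped. Whether reads or peaks of the replicates were merged is not given in the sources used here. Broad calling joins neighbouring stretches, so width and number of peaks depend on that rule and on depth, which the file does not give (the methods state only an approximate one).

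Peaks were placed on GENCODE version 44 (hg38). Coordinates are counted from 1. Open sequence is the part of long genes (200 kb or longer) outside all annotated exons and beyond 3 kb of any start site, 528.2 Mb or 85.5% of their bodies. A peak or base inside several long genes went to 1 of them (not readthrough first, then the longest), which affected 59 peaks. Introns were those of the Ensembl canonical transcript. Shares carry 95% Wilson intervals, and densities and the ratio carry exact Poisson and conditional binomial ones. Motifs were counted on both strands, in whole peaks and in the central 300 bases. Analyses used Python 3.11.15, numpy 2.4.6 and scipy 1.17.1, and the counting steps were tested on simulated data. The peaks described and the gene lists were chosen with earlier results of these data known. Genes named are the 15 hosts with most peaks, the 10 densest with at least 5 peaks, hosts of the 5 widest peaks and of the 5 largest runs, the 10 longest genes, the 10 longest without a peak, those on either side of 200 kb, and genes of the lists. Hosts without a promoter peak, the genes around printed motif sites and genes with the widest promoter peaks were also named, after their values were seen. Some genes and 1 list that these rules take in are not reported here. Alternatives changed the length limit, promoter window, start sites, placement, exon filter, joining of peaks, peak width, readthrough genes, joining distance, near part and scanned window.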

Additional observations from a re-analysis of the deposited data

How the results depend on the processing

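Of 111 recomputed values over 13 results, 76 stayed within the original value's counting interval (for the numbers of peaks and genes, within 1.5 times the original), 34 lay outside it, some only slightly, and 1 changed direction. No paired analysis was possible because the list holds no values per replicate, and for the same reason no replicate could be left out. Counts followed the length limit: 4571 peaks in 1376 genes at 100 kb, 416 genes at 300 kb, and 746 peaks in 169 genes at 500 kb. The widest 50% of all peaks left 921 in 369 genes. The ratio of density in the first 50 kb to that beyond turned to 0.857 at 500 kb (interval 0.595 to 1.20). It was 1.45 at 100 kb, and 1.53 with a near part of 25 kb. The share of hosts with a promoter peak was 81.7% at 300 kb, 79.9% at 500 kb and 79.1% for the widest peaks. The first intron share was 32.0% at 100 kb and 23.01% at 500 kb. The share held by the 10 leading genes was 6.54%, 15.7% and 26.9% at 100, 300 and 500 kb, 8.92% with peaks within 1 kb joined, 14.4% for the widest peaks, and 7.56% once the 10 leading hosts were left out, a setting added after seeing the data. Peaks with a neighbour made up 60.02% at a joining distance of 5 kb and 74.8% at 25 kb, 63.1% in genes of 500 kb, 39.0% after joining peaks within 1 kb, 50.6% for the widest peaks and 65.1% without the 10 leading hosts. Median width was 1060 bases after joining and 1750 bases for the widest peaks. In the central 200 bases motifs occurred per Mb 5.497 times for TGACGTCA, 674.2 for TGANNTCA, 164.9 for TGAGTCA, 135.6 for CACGTG and 14.7 for TCACGTGA, and TGANNTCA occurred 585.8 times per Mb in the widest peaks. Of these, TGACGTCA and TCACGTGA rest on 3 and 8 copies. The number of called peaks depends on sequencing depth, which the list does not give, and a gene without a peak is below the calling limit, not shown to lack acetylation.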

Other observations

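Long-gene peaks lay on 23 chromosomes. Per Mb of open sequence, chromosome 22 had the most, with 45 peaks in 12 of 15 long genes (10.5, 7.69 to 14.1), followed by chromosome 6 with 272 peaks in 52 of 98 long genes (8.50, 7.52 to 9.57). The X chromosome had 42 peaks in 20 of 59 long genes (1.78, 1.28 to 2.41).

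Several large runs lay in genes outside the lists. PRICKLE2, a planar cell polarity gene, held a run of 12 peaks over 42.7 kb, 93.2 to 134.5 kb from its outermost start. ZNF407, a zinc-finger gene, held 10 in 19.2 kb close to its start, and KIAA1671 held 10 in 49.0 kb. NEDD4L, a ubiquitin ligase that acts on sodium channels, held 16 peaks along 357.3 kb. These genes were named after their values were seen.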
